A study of Mus musculus with 4 samples.

Results

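The small leucine-rich proteoglycans (SLRPs) described here are the 10 genes Dcn, Bgn, Fmod, Lum, Prelp, Ogn, Omd, Aspn, Kera and Chad, found by symbol. Each matched 1 of the 32285 genes counted in every library. Single cell RNA was counted in 4 libraries of mouse tail intervertebral discs, 2 of control and 2 of injured discs, 1 of each in each of 2 rounds. All discs came from wildtype female C57BL/6 mice aged 12 weeks and were taken 7 days after injury. Injured discs were punctured from both sides with a 30G needle, and the controls were internal, discs of the same animals that were not injured. Control discs lay further along the tail than injured discs, so tail level and injury cannot be told apart. Discs of 6 mice, 30 per group, were pooled, and the sources used here do not say whether that holds for each round. The cells were frozen, thawed and sorted as viable by DAPI before droplet capture. With 2 pooled libraries per group, p-values measure only the spread between these libraries.

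SLRPs are secreted matrix proteins built of leucine-rich repeats, most of which carry glycosaminoglycan chains. Many of them bind collagen and help to set the width and spacing of its fibrils, and several also bind growth factors or cell surface receptors. In the disc they lie among the collagen layers of the annulus fibrosus, the ringed wall, whose inner part is cartilage-like and whose outer part is fibroblast-rich and tendon-like.

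Of the 10 genes, 3 belong to class I of the family (Dcn, decorin; Bgn, biglycan; Aspn, asporin). Class II holds Fmod (fibromodulin), Lum (lumican), Prelp (prolargin), Omd (osteomodulin) and Kera (keratocan). Ogn (osteoglycin, also called mimecan) is of class III and Chad (chondroadherin) of class IV. On mm10, 3 stretches hold several of the genes next to other family members. Ecm2, Aspn, Omd and Ogn lie in this order on the plus strand of chromosome 13, within 119.7 kb from 49504810 to 49624501. Dcn, Lum, Kera and Epyc share 202.8 kb of chromosome 10, and Optc, Prelp and Fmod share 151.1 kb of chromosome 1. Bgn is on the X chromosome and Chad on chromosome 11. Cenpp on the minus strand spans all 4 genes of the chromosome 13 stretch and shares 7 exon bases with Aspn. An exon of Prelp overlaps the antisense gene Gm15851 over 350 bases, so its count is uncertain to the extent that strand was not used in counting.

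Of the chromosome 13 neighbours, Ecm2, Omd and Ogn were lower in both injured libraries of inner and of outer annulus-like cells. Aspn, between Ecm2 and Omd, was not. Within a single inner cluster the groups also overlapped for Omd and Ogn, as given below. Because of this difference in the annulus-like cells, the sequences just upstream of the 4 genes are shown. Each is the plus strand of the 250 bases before the RefSeq start (GRCm38.p6), at chr13:49504560-49504809 for Ecm2, chr13:49544193-49544442 for Aspn, chr13:49582212-49582461 for Omd and chr13:49607765-49608014 for Ogn. Capitals mark matches on either strand to the TATA box letters TATAAA.
Ecm2: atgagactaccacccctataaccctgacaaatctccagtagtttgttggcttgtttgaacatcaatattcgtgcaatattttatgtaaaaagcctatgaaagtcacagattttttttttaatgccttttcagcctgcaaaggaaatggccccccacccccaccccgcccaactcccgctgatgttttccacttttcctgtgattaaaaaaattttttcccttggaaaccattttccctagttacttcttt
Aspn: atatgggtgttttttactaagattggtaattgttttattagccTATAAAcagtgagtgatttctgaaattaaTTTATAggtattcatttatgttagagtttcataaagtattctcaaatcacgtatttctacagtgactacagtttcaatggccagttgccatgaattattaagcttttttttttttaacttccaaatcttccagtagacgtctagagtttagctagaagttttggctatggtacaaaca
Omd: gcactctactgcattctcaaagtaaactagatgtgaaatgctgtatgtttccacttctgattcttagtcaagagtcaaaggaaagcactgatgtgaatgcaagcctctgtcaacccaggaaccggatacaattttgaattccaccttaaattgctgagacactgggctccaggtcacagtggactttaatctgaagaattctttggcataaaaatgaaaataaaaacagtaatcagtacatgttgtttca
Ogn: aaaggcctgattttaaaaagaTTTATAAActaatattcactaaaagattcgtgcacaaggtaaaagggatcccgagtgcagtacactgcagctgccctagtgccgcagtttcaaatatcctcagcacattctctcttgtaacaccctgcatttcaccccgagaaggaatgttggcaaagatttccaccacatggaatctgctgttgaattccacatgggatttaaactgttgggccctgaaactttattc
Aspn held 2 matches, starting at positions -207 and -178 counted from the start, and Ogn held 2 overlapping matches at -229 and -227. Ecm2 and Omd held none. Of 32851 mouse promoter windows of the same length, 12.4% had at least 1 match. The AP-1 letters TGANTCA, searched on both strands, were in none of the 4 windows and in 6.75% of all windows. These are matches of letters and no evidence of binding. Of the 10 SLRPs, 8 had a promoter entry; Dcn and Lum had none.

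Total UMIs, counts of distinct RNA molecules, ran from 1114210 to 16972879 per library. Barcodes with at least 250 detected genes were kept as cells: 378 and 778 in control and injured round 1, and 856 and 1834 in control and injured round 2. Control cells were shallower, with medians of 1061.5 and 836 UMIs, than injured cells, with 7033.5 and 4635. All barcodes of control round 1 were also listed in the injured library of that round, and 159 of its 378 cells had similar or far more UMIs there. The comparisons between groups, the gene lists and the pooled cluster levels were therefore also computed without those cells. Clustering without the family genes gave 16 clusters, of which 11 were named from marker genes. Inner annulus or cartilage-like cells numbered 196 (control) and 427 (injured) in round 1 and 243 and 754 in round 2, and outer annulus or fibroblast-like cells 44 and 107 in round 1 and 74 and 785 in round 2. The inner clusters had the cartilage genes Col2a1, Acan and Sox9 (c0 and c2) or Sox9, Cnmd and Col11a2 (c3), and all outer clusters had Col1a1 and Col1a2. Nucleus pulposus-like cells expressed T (brachyury) but were few, 29, 5, 66 and 1, and had median mitochondrial shares of 21.0% to 71.5%. The inner class was made of different clusters in the 2 groups. Of its control cells, 99 of 196 and 214 of 243 were in cluster c3 (leading genes Grem1 and Cnmd). In control round 1, 93 more were in cluster c2 (Bmp2, Mmp3). Without the shared cells, 99 of the 108 inner cells of control round 1 were in c3. In injured round 1 the inner class was mostly c2 (367 of 427). In injured round 2 it was mostly cluster c0 (641 of 754, led by Saa1 and Chil1). The outer class was mostly cluster c1 (Myoc, Angptl7) in both controls and injured round 1. In injured round 2 it was c1 in 356 of 785 cells and c6, led by Aspn, Cthrc1 and Postn, in 246. The names are rebuilt from markers, and c1 had as many inner as outer markers among its leading genes, 2 of each.

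SLRP transcripts were abundant in annulus cells and in the unnamed cluster c5, and the genes differed in which of these clusters held them. Levels are given as CPM, UMIs of the gene per 1000000 UMIs of the cell group. Each UMI is 1 molecule counted at its 3' end, so levels of different genes are set side by side without scaling for length. Over all libraries, Dcn, which coats collagen fibrils, was the most abundant SLRP in every annulus cluster, at 19232 in c1, 11567 in c2, 8170 in c0, 4077 in c6 and 3474 in c3. These pooled levels weight libraries unequally: within c3, Dcn ran from 1003 in control round 2, where Chad was higher at 1333, to 8731 in injured round 1. Chad, a leucine-rich protein that binds collagen and integrins and carries no glycosaminoglycan chain, was at 5310 in c1 and 2484 in c3 but only 85.0 in c6. Fmod, which binds fibrillar collagen, was at 1812 in c1 and at or below 414 in every other cluster. Aspn, which also binds collagen and can bind TGF-beta, was at 1169 in c6, 560.0 in the dividing cells of c11 and 36.6 in c1. Lum, a keratan sulfate proteoglycan of collagen fibrils, was at 1984 in c5, 664 in c6 and 62.5 in c1. Cluster c5, with 319 shallow cells and leading genes Ccl11 and Dpep1, also had Dcn at 16655 and Ogn at 491. All 17 of its control round 1 cells were shared barcodes with similar UMIs in injured round 1. Within the outer class, then, c1 had the higher levels of Chad and Fmod and c6 those of Aspn and Lum. Of the 265 cells of c6, 246 came from injured round 2. In the other 3 libraries c1 held most Lum UMIs of the outer class, 7 of 11 in control round 1, 81 of 147 in injured round 1 and 13 of 19 in control round 2. Omd, known from bone and tooth matrix, was low everywhere, at 28.1 in c3 and 9.89 in c1 over all libraries, but at 19.3 in c3 and 31.9 in c1 within control round 2. Without the shared cells, the levels given here for clusters c0 to c6, c8, c11, c13 and c14 moved by at most 1.08 times.

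**Figure D1:**
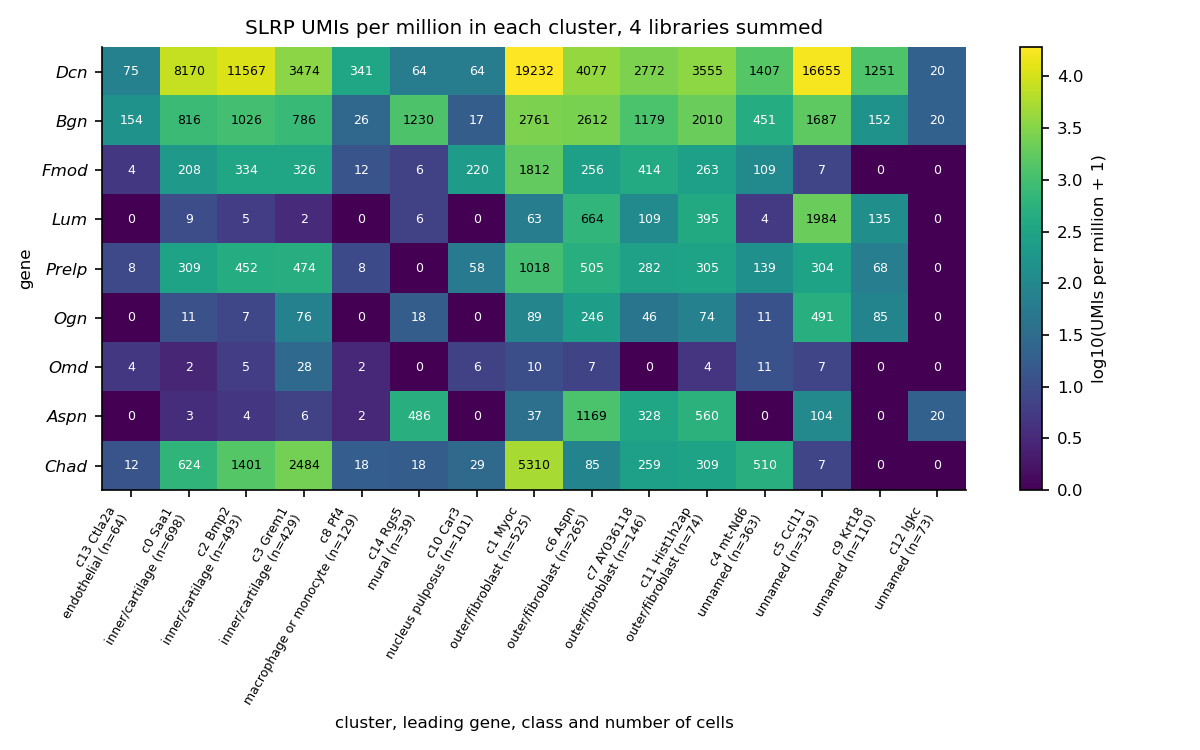
Levels of 9 SLRPs (rows; CPM, printed in each cell and coloured as log10 of the level plus 1) in the 15 clusters of at least 20 cells (columns, with leading gene, class and number of cells), all libraries summed. Dcn is high in all annulus clusters and in c5, Chad and Fmod stand out in c1, Aspn is highest in c6, and Lum and Ogn are highest in the unnamed cluster c5.

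Named cell types outside the annulus held few SLRP transcripts, with mural-like cells as an exception for Bgn and Aspn. Macrophage-like cells (c8) and endothelial-like cells (c13) had Dcn at 341 and 74.9 and Chad at 18.1 and 11.8. Mural-like cells (c14, 39 cells, led by Rgs5) had Bgn at 1230.3 and Aspn at 486, with Dcn at 64.4 and Lum at 5.86. Nucleus pulposus-like cells had Fmod as their leading SLRP, at 431 in control round 1 and 107 in control round 2, from 27 and 11 UMIs. Barcodes with under 100 UMIs, which hold mostly free RNA, had Dcn at 1807, 817 and 1467 in injured round 1, control round 2 and injured round 2. They had Fmod at 104 in control round 2, close to the 107 of nucleus pulposus-like cells there. Control round 1 gave no free RNA level. The Dcn level of macrophage-like cells, 56.1 and 537 in the injured libraries, was below that of free RNA of the same library.

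Over all disc cells (nucleus pulposus-like, inner and outer together), Dcn made up most of the SLRP transcripts, 52.9% and 73.5% of them in control and injured round 1 and 56.1% and 65.0% in control and injured round 2. The 10 genes together took 1.14% and 1.00% of all UMIs in the control libraries and 1.61% and 1.58% in the injured ones. Dcn itself was at 6021 and 11836 in control and injured round 1, and at 5629 and 10271 in round 2. Lum was at 13.7 and 28.2 in round 1 and at 10.5 and 189 in round 2, so most of its difference came from injured round 2. Omd was at 35.8 and 5.90 in round 1 and at 19.9 and 4.60 in round 2. Injured libraries lay above both control libraries for Dcn, Lum and Bgn and below them for Chad and Omd, with 9 genes tested. Over all genes tested, 16.7% were higher in both injured libraries and 20.5% lower.

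None of the 9 tested SLRPs passed in disc cells by the quasi-likelihood test of edgeR at an adjusted p under 0.05, and 0.0178% of all genes did. Of the 9, 3 had an unadjusted p under 0.05, and DESeq2 called 2, Lum and Omd, among 1.13% of the genes it gave an adjusted p. With round as a block, edgeR called the same pair: Lum with a log2 change of 3.04 ± 0.61 (SE; adjusted p = 0.0224) and Omd with -2.28 ± 0.36 (adjusted p = 0.00818), among 3.45% of all genes. Without the shared cells of round 1 and with the block, only Omd was called by edgeR (adjusted p = 0.0336), among 1.9% of genes. Kera, an SLRP of the cornea, had 0 UMIs in both controls, which allows up to 3.16 and 1.66 CPM (3 UMIs), and 2 and 7 UMIs in the injured libraries. It did not pass the filter on low counts in any comparison.

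In inner annulus or cartilage-like cells, Dcn was higher and Omd and Ogn were lower in both injured libraries than in both controls. Dcn was at 4392 and 11629.7 CPM in control and injured round 1, and at 1777 and 8149.8 in control and injured round 2. The injured to control ratio was 2.65 (95% counting interval 2.55 to 2.75) in round 1 and 4.59 (4.39 to 4.79) in round 2. Leaving out the shared cells, control round 1 stood at 3523 and the round 1 ratio at 3.30. Dcn thus differed between groups in both rounds and, in the controls, also between rounds.

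Ogn, a collagen-binding member found in bone, tendon and vessel walls, was at 18.5 and 7.67 in round 1 and at 92.1 and 18.1 in round 2. Its highest injured value, 18.1, was close to its lowest control value, 18.5, so the groups barely separated. Omd was at 41.4 and 5.90 in round 1 and at 17.0 and 3.13 in round 2, a clear separation from few UMIs (29 and 30 in round 1, 21 and 14 in round 2). The free RNA of injured round 1 held Omd at 16.3 and Ogn at 31.2, above the levels of the injured inner class.

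None of the 9 SLRPs tested in the inner class passed in the fit without round, where edgeR called 0.0% of all genes, and 4 had an unadjusted p under 0.05. DESeq2 called 1 of them, Dcn, among 1.19% of genes. The log2 changes were 1.76 ± 0.55 for Dcn, -2.002 ± 0.68 for Ogn and -2.54 ± 0.59 for Omd (SE; edgeR adjusted p = 0.382, 0.450 and 0.201). With round as a block, edgeR called 5.3% of genes and 3 SLRPs: Dcn rose by 1.91 ± 0.47 (adjusted p = 0.0185), Ogn fell by 1.84 ± 0.34 (adjusted p = 0.00219) and Omd fell by 2.55 ± 0.41 (adjusted p = 0.000524). Without the shared cells and with the block, 9.58% of genes were called by edgeR, and 4 SLRPs, the same 3 and Lum (log2 change 2.83 ± 0.92, adjusted p = 0.0290). The fit without shared cells and without the block called 0.155% of genes. With 1 library left out, edgeR called Dcn without control round 1 (log2 change 2.64, adjusted p = 0.0476) or injured round 2 (1.97, 0.00376) and not without injured round 1 (1.56, 0.159) or control round 2 (1.24, 0.660). With cells assigned by their own marker score, the log2 change of Dcn was 0.94 (edgeR adjusted p = 0.979). Lum in this class rested on 2, 25, 0 and 42 UMIs; the 0 in control round 2 allows up to 2.42 CPM, and its levels, at most 9.40, were below the 35.0 to 132 of free RNA.

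The other SLRPs of the inner class differed less. Bgn, the nearest relative of Dcn, was at 809 and 1044 in round 1 and at 604 and 837 in round 2, above its own round's control both times. Both injured levels lay above both controls, with a log2 change of 0.51 ± 0.41 (edgeR adjusted p = 0.81). Chad was at 2928 and 1554 in round 1 and at 1146 and 841 in round 2. It was lower with injury in each round, but control round 2 lay below injured round 1, so the groups overlapped. Fmod ranged from 225 to 348, Prelp, a collagen-binding anchor protein near basement membranes, from 324 to 512, and Aspn from 3.13 to 4.28, all with overlapping groups. Dcn, Lum and Bgn were higher in both injured libraries and Omd and Ogn lower, among 14.8% and 23.3% of all genes. The mixture of clusters moved with the groups, as given above, and its part in these differences was not tested in the class itself. Markers of osteoblasts and osteocytes (9 genes) summed to 1094 CPM in control round 1 against 42.3, 66.2 and 12.8 in injured round 1, control round 2 and injured round 2, with 3 to 5 of them at 0, and their part was not tested. Macrophage markers (13 genes) summed to 10.5 to 22.8 in the 4 libraries, and mitochondrial shares of the summed UMIs were 2.8%, 2.61%, 8.27% and 3.97%.

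**Figure D2:**
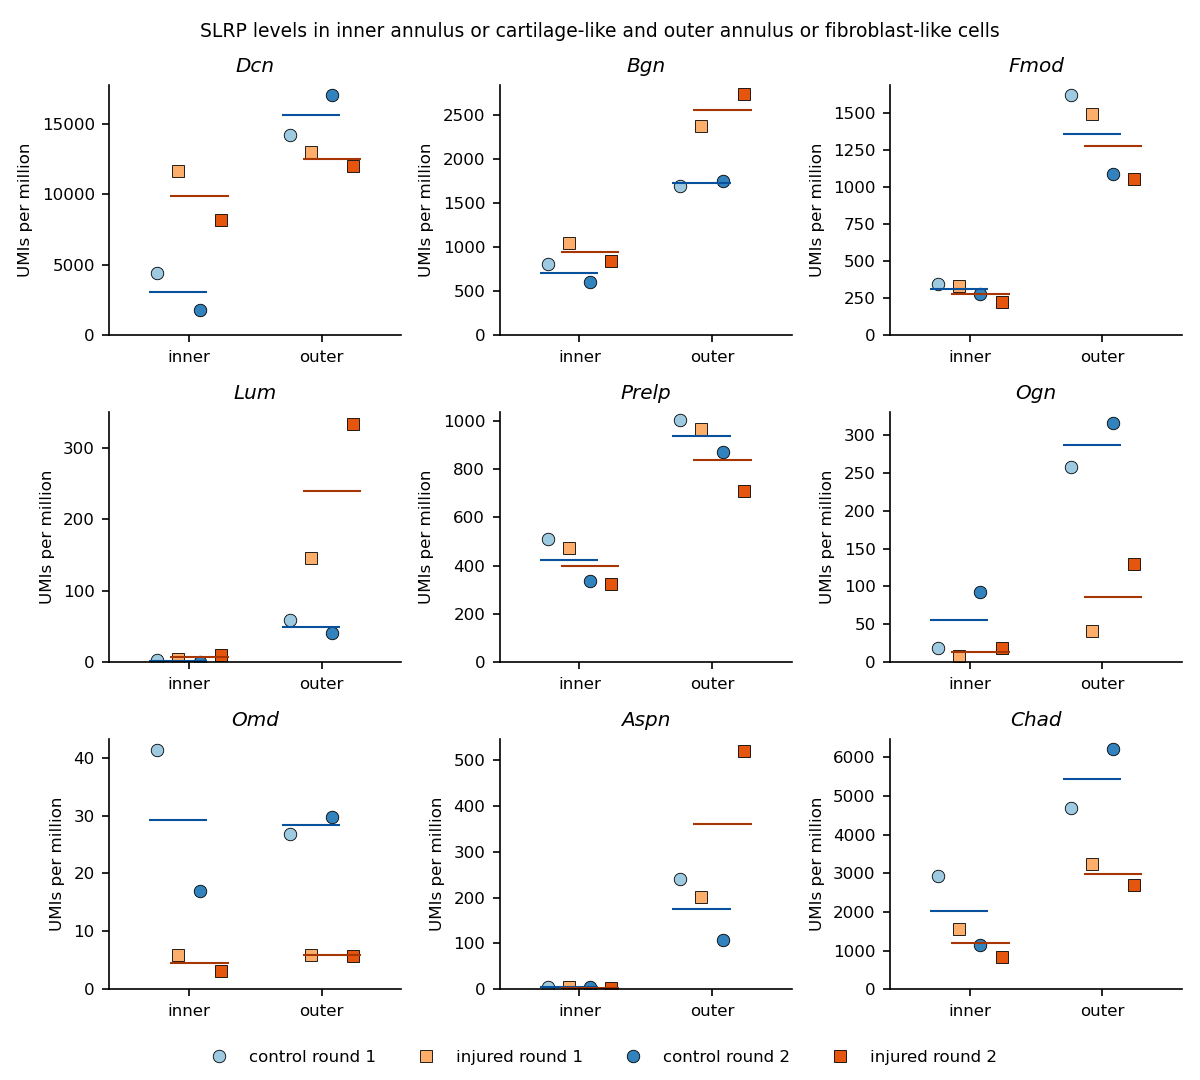
Levels of 9 SLRPs (vertical axes, UMIs of the gene per 1000000 UMIs, CPM; scales differ between panels) in the inner and outer classes of each library. Circles are control and squares injured libraries, and lines are group means of 2 libraries; Dcn is higher with injury in the inner class, Lum is higher in the outer class, and Omd is lower in both.

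In outer annulus or fibroblast-like cells, Lum rose and Dcn did not pass the test in either direction. Lum was at 59.1 and 146 CPM in control and injured round 1 and at 40.5 and 334 in control and injured round 2, so both injured libraries exceeded both controls. The log2 change was 2.35 ± 0.51 (SE; edgeR adjusted p = 0.0329), a 5.11-fold difference, and 1.27% of all genes were called. Lum was the only SLRP called by edgeR in this fit, and 5 of 9 had an unadjusted p under 0.05. Its level in injured round 2 was 689 CPM in c6 and 56.7 in c1, and c6 made up 246 of the 785 outer cells there. Within c1, Lum was higher in both injured libraries without passing, as given below. The part of the cluster mixture in the class difference was not tested. DESeq2, which called 3.87% of genes, called 2 SLRPs, Lum and Ogn. Lum was also called without the shared cells (edgeR adjusted p = 0.0309, 1.63% of genes). It was not called by edgeR when cells were assigned by their own marker score (log2 change 1.86, adjusted p = 0.292). Nor was it called without control round 2 (log2 change 2.06) or without injured round 2 (1.61). The round ratios were 2.47 (95% counting interval 1.34 to 5.05) and 8.26 (5.28 to 13.8), and free RNA held Lum at 132, 35.0 and 78.8 in injured round 1, control round 2 and injured round 2.

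Ogn and Omd, neighbours on chromosome 13, were lower in both injured libraries of the outer class. Ogn was at 258 and 40.7 in round 1 and at 315 and 130.2 in round 2, and Omd at 26.9 and 5.95 in round 1 and at 29.8 and 5.79 in round 2. The groups did not overlap for either gene. Without round, Ogn had a log2 change of -1.69 ± 0.49 and Omd of -2.26 ± 0.60 (edgeR adjusted p = 0.124 and 0.0843). With round as a block, edgeR called 2.68% of genes, with Ogn lower by 1.84 ± 0.37 (log2 change -1.84, adjusted p = 0.0247), Omd (-2.26 ± 0.51, adjusted p = 0.0363) and Lum. Without the shared cells and with the block, edgeR called 8.02% of genes and 4 SLRPs, these 3 and Aspn (log2 change 1.05 ± 0.35, adjusted p = 0.0404).

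Aspn was at 242 and 201 in round 1 and at 107 and 521 in round 2, a pattern that differed between rounds. The injured to control ratio was 0.83 (0.60 to 1.18) in round 1 and 4.89 (3.70 to 6.61) in round 2, and control round 1 lay above injured round 1. Injured round 2 was also the library in which c6, the cluster with the highest Aspn, made up 246 of the 785 outer cells. Chad was at 4686 and 3254 in round 1 and at 6216 and 2692 in round 2, lower in both injured libraries, with a log2 change of -0.86 ± 0.33 (edgeR adjusted p = 0.280). Dcn was at 14182 and 12957 in round 1 and at 17012 and 11985 in round 2, also lower in both, with a log2 change of -0.31 ± 0.30 (adjusted p = 0.767). Bgn was at 1693 and 2366 in round 1 and at 1752 and 2735 in round 2, higher in both (log2 change 0.58 ± 0.34, adjusted p = 0.582). Fmod (1057.5 to 1623) and Prelp (711 to 1005) had overlapping groups. Over all genes tested, 22.0% were higher in both injured libraries and 20.2% lower. The outer marker list (20 genes) itself summed to 22533 and 24075 CPM in the controls and 31116 and 37607 in the injured libraries, and its part in these values was not tested.

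The 2 classes differed in how Dcn compared between injured and control discs. The difference in its log2 change, outer minus inner, was -2.20 ± 0.39 (SE; edgeR with library as a term, adjusted p = 0.0145), and 0.195% of genes were called. Leaving those cells out, it was -2.36 ± 0.36 (adjusted p = 0.00208, 0.227% of genes). The sign held in all 16 alternatives and the call in 11 of them. The call was lost without the library term (-2.04; adjusted p = 1.0, edgeR called 0.0% of genes), without control round 2 (-1.34; 0.730), at the higher UMI minimum (-2.20; 0.0529), with cells assigned by marker score (-1.45; 1.0) and with clusters c3 and c1 in place of the classes (-1.85 ± 0.45; 0.160). No other SLRP passed in the class comparison, and 1 of 9 had an unadjusted p under 0.05, Dcn itself.

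Because injured and control classes were made of different clusters, the comparison was repeated within c3 of the inner class and c1 of the outer class, both chosen after their values were seen. In c3, which had 99 and 34 cells in round 1 and 214 and 82 in round 2 and no shared cells, Dcn was at 3564 and 8731 in round 1 and at 1003 and 6239 in round 2. The ratios were 2.45 (2.31 to 2.60) and 6.22 (5.76 to 6.72), so the higher Dcn level was present within a single inner cluster. The log2 change was 1.75 ± 0.60 without round (edgeR adjusted p = 1.0, 0.0% of genes called, and DESeq2 called 0 SLRPs) and 1.99 ± 0.40 with round as a block (edgeR adjusted p = 0.000981, 0.791% of genes). It was the only one of 7 SLRPs tested with an unadjusted p under 0.05. Bgn was at 788 and 1142 in round 1 and at 599 and 1038 in round 2, higher in both injured libraries, as 10.0% of all genes were. Chad was at 3166 and 4715 in round 1 and at 1333 and 2787 in round 2, higher in each injured library than in its own round's control, the opposite order to the inner class as a whole. Omd in c3 was at 49.7 and 13.97 in round 1 and at 19.3 and 28.4 in round 2, from 4 to 29 UMIs, and the groups overlapped, as they did for Ogn. Osteoblast and osteocyte markers summed to 1307 CPM in control round 1 of c3 and to 31.6 to 90.8 in the others, and their part was not tested.

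In c1, Ogn fell and Dcn did not pass the test. Ogn was at 224 and 48.1 in round 1 and at 285 and 60.4 in round 2, with ratios of 0.21 (0.13 to 0.35) and 0.21 (0.17 to 0.27), so the rounds gave nearly equal values. The log2 change was -2.12 ± 0.37 (edgeR adjusted p = 0.0328, 0.618% of genes called), a 4.34-fold lower level, and it was called in all 13 alternatives run, with the highest adjusted p at 0.0421. DESeq2 called 1 SLRP in c1, Ogn, among 5.13% of genes. Omd was at 19.2 and 7.81 in round 1 and at 31.9 and 6.34 in round 2, from 3 to 17 UMIs. Aspn was at 159.9 and 40.3 in round 1 and at 41.1 and 27.6 in round 2, lower with injury in each round, whereas in the outer class as a whole it was higher with injury in round 2. With round as a block, edgeR called 9.04% of genes, with Ogn, Omd (-1.89 ± 0.56, adjusted p = 0.0139) and Aspn (-1.16 ± 0.39, adjusted p = 0.0353). Without the shared cells and with the block, Ogn and Omd were called by edgeR among 6.87% of genes and Aspn was not (adjusted p = 0.0620). Dcn was at 15440.1 and 15252 in round 1 and at 17175 and 20931 in round 2, with a log2 change of 0.25 ± 0.33 (adjusted p = 0.824). Lum, 44.8 and 105 in round 1 and 29.7 and 56.7 in round 2, and Bgn, 1739.7 and 2632 in round 1 and 1762 and 3021 in round 2, were higher in both injured libraries without passing (edgeR adjusted p = 0.330 and 0.389). Over all genes tested in c1, 19.3% were higher and 23.9% lower in both.

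**Figure D3:**
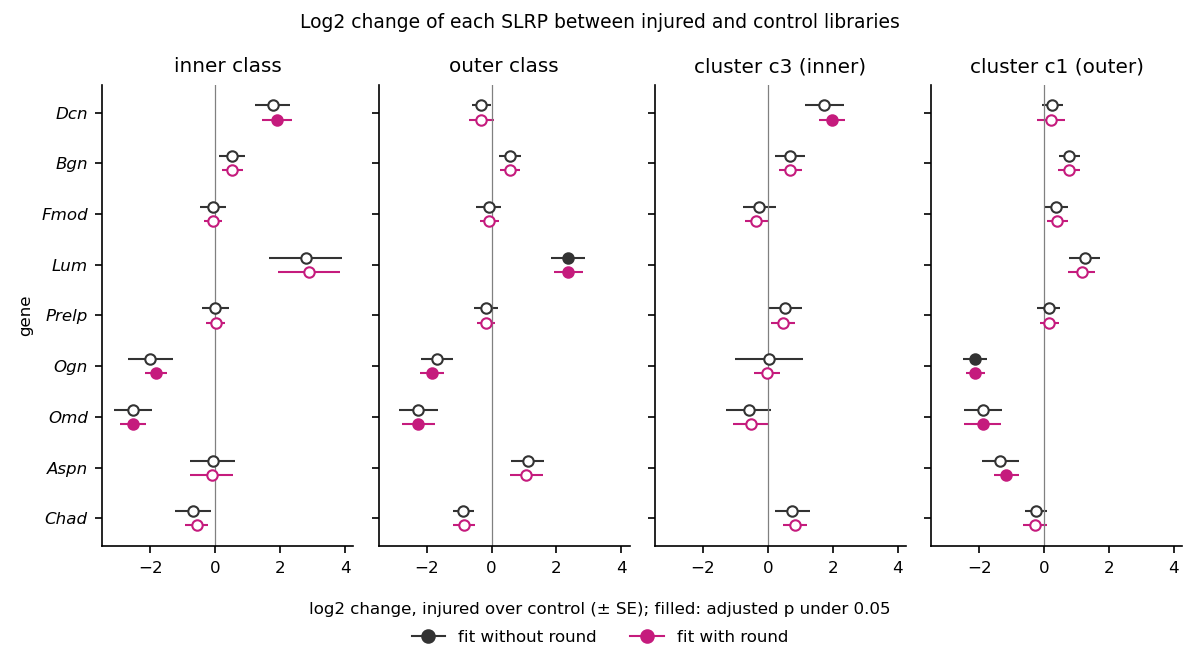
Log2 change (horizontal axis, injured over control, ± SE) of each SLRP in the inner class, outer class, cluster c3 and cluster c1, in the fit without round (dark) and with round as a block (pink); filled points have an adjusted p under 0.05. Dcn lies right of 0 in the inner class and c3 and near 0 in the outer class and c1, and Ogn lies left of 0 everywhere but c3.

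**Figure D4:**
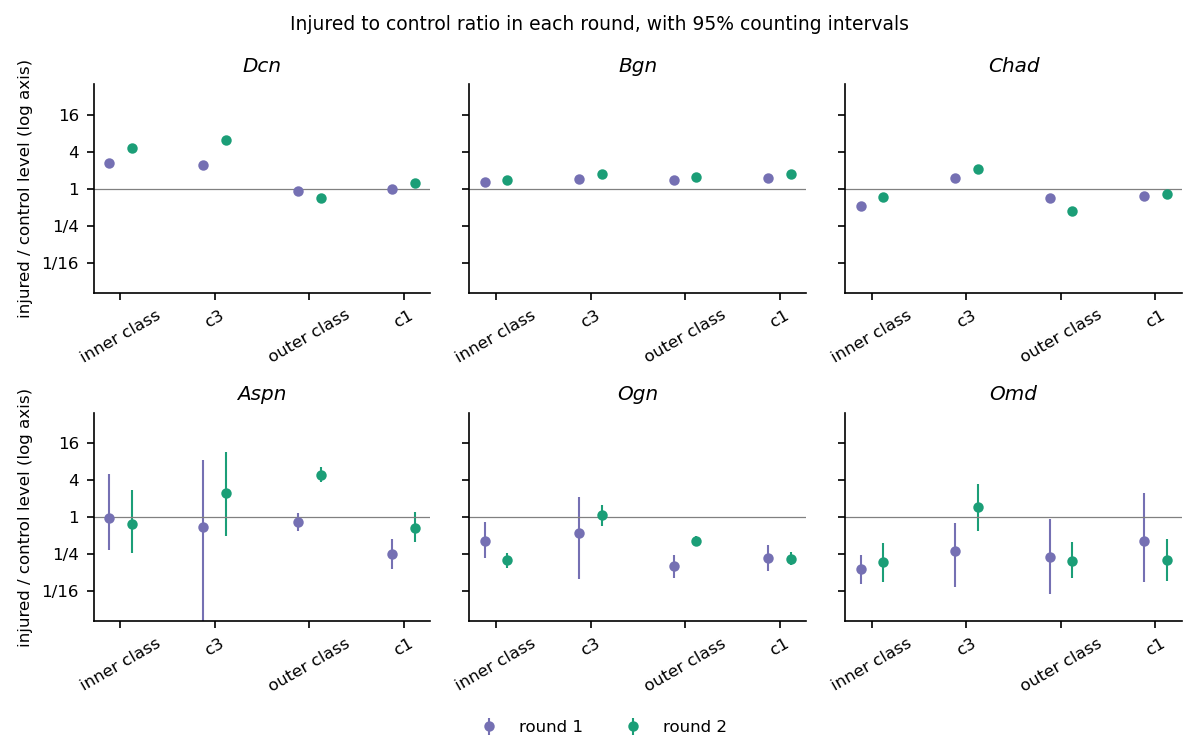
Ratio of the injured to the control level (vertical log axis) of 6 SLRPs in each round, with 95% counting intervals as bars, in the inner class, c3, the outer class and c1. Aspn differs between rounds in the outer class, 0.83 against 4.89, while Ogn in c1 is at 0.21 in both.

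The share of cells with a Dcn transcript was higher in the injured library of each round in the inner class and in c3. Shares were taken after thinning every cell to 1000 UMIs, because depth differed, and without the shared cells of round 1. In the inner class, 32.7% of control and 73.7% of injured cells had Dcn in round 1, and 23.0% and 58.8% in round 2 (48.1%, 86.9%, 34.2% and 69.4% unthinned). In c3 the thinned shares were 33.3% and 64.7% in round 1 and 20.6% and 31.5% in round 2. The share did not order the libraries of c3 as the level did: injured round 2 had the higher Dcn level but the lower share of cells than control round 1. Macrophage-like cells, which should lack Dcn, had it in 7.21% of 111 thinned cells (median 3340 UMIs). Thinning left out 46 of 1532 inner and 124 of 1000 outer cells.

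In the outer class, 24.0% of injured round 2 cells had Aspn after thinning, against 6.06%, 9.09% and 5.36% in control round 1, injured round 1 and control round 2. Chad was in 46.6% of injured round 2 cells, against 66.7%, 64.8% and 83.9% in the same order. In the injured libraries, the cells with Aspn and those with Chad were largely different cells. Among the 699 thinned outer cells of injured round 2, 9 of the 168 with Aspn also had Chad (5.36%), against 59.7% of the cells without Aspn. In injured round 1, 0 of 8 cells with Aspn had Chad, against 71.2% of the others. The controls had too few cells with Aspn to tell: 0 of 2 in round 1 and 1 of 3 in round 2 had Chad. Chad was in 78.5% of cells with Fmod and 28.2% of those without in injured round 2, in 81.1% and 40.0% in injured round 1 and in 94.1% and 37.5% in control round 1. In control round 2 these shares were close, 86.7% and 80.8%. In injured round 2, Aspn was in 47.8% of cells with Lum and 18.4% of those without. These shares describe cells of 1 library and have no replicate test.

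Genes outside the family whose levels ran most closely with each SLRP over the 15 clusters were named by Pearson's r of log2(level + 10), as a description over clusters that share libraries and depth. They were Postn, Nnmt and C1qtnf6 for Aspn (r = 0.93 to 0.96), Wif1, Cytl1 and Slurp1 for Chad (0.97 to 0.98), and Mkx, Gm15867 and Ecrg4 for Fmod (0.93 to 0.96). Dpt, Col14a1 and Sfrp1 ran with Lum (0.94 to 0.96), Clec3b, Osbpl1a and Islr with Ogn (0.89 to 0.94), and Chodl, Gpld1 and Tnr with Omd (0.84 to 0.90). For Dcn they were Htra3, P4ha2 and Slc29a1 (0.93 to 0.95), for Bgn Sparc, Col5a2 and B3glct (0.94 to 0.96), and for Prelp Ccdc80, Igfbp6 and Ptgis (0.92). Within the family, the highest r were those of Dcn with Prelp (0.92), Lum with Ogn (0.90) and Fmod with Chad (0.88). Of the chromosome 13 neighbours, Aspn with Ogn was at 0.57, Omd with Ogn at 0.30 and Aspn with Omd at -0.19.

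Among 8 further family genes, Ecm2, the chromosome 13 neighbour of Aspn, was lower in injured cells. In the outer class Ecm2 was at 532 and 157 in round 1 and at 599 and 83.2 in round 2, and it fell by 2.25 ± 0.43 on the log2 scale (edgeR adjusted p = 0.0171). In c1 it fell by 2.07 ± 0.38 (adjusted p = 0.0386), and in the inner class its log2 change was -2.72 ± 0.44 (adjusted p = 0.0632, called with the block). In c3 its log2 change was only -0.57 ± 0.43 (adjusted p = 1.0). Of the 4 chromosome 13 neighbours, Ecm2, Omd and Ogn thus had lower levels in both injured libraries of both classes. The groups overlapped for Aspn in both classes, from 3 to 21 UMIs in the inner class. Within c1, Aspn was also lower in both injured libraries, and within c3 the groups overlapped for Omd and Ogn. The difference between these genes was not tested. Chadl, the relative of Chad, had a log2 change of -2.64 ± 0.51 in the inner class (edgeR adjusted p = 0.130; 0.000654 with the block, where it was called), and Epyc, the neighbour of Kera, of 1.05 ± 0.53 in the outer class (adjusted p = 0.472).

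Several collagens that SLRPs bind rose in injured outer cells. Of 13 fibril and microfibril collagen genes, 7 rose and none fell in the outer class by edgeR, against 1.27% of all genes called. The 13 had a median log2 change of 1.67, against 0.018 over all genes tested. Most of the 13, Col1a1, Col1a2 and Col2a1 among them, were also markers used to name the outer or inner clusters. The part of this overlap was not tested. Col1a1, the main chain of annulus fibrils, rose by 1.44 ± 0.31 (adjusted p = 0.0329), Col2a1, the cartilage fibril collagen, by 1.89 ± 0.38 (0.0240) and Col6a1, a microfibril chain, by 1.496 ± 0.35 (0.0466), while Col1a2 had a log2 change of 0.58 ± 0.31 (0.509). With the block, 9 of the 13 rose among 2.68% of all genes, and Col1a1 was no longer called (edgeR adjusted p = 0.0706). Leaving out the shared cells, 7 rose among 1.63% of all genes, and with the block as well 11 rose, Col1a1 among them, and 1 fell, Col14a1, among 8.02%. In c1, 6 of 12 tested rose among 0.618% of all genes. None was called by edgeR without the shared cells (10 at an unadjusted p under 0.05, 0.375% of all genes called). The median log2 change was 1.62 with the shared cells and 1.63 without them. With the block 10 rose with or without them (9.04% and 6.87% of all genes). In the inner class none of 12 passed without round (10 at an unadjusted p under 0.05; 4 by DESeq2, which called 1.19% of genes). With the block 6 rose, among 5.3% of all genes, and 11 when the shared cells were also left out, among 9.58%. Within c3 none of 12 passed without round by edgeR or DESeq2 (3 at an unadjusted p under 0.05 by edgeR). The median log2 change was 0.75 in c3, against 1.29 in the inner class. With the block 2 rose in c3, among 0.791% of all genes. In disc cells none of 13 passed without round (12 at an unadjusted p under 0.05; 8 by DESeq2, which called 1.13% of genes). With the block 10 rose, among 3.45% of all genes, and 4 when the shared cells were also left out, among 1.9%.

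Genes that build, bind or cut SLRPs mostly did not pass without round. Of 17 enzymes that make or sulfate their chains, 12 were tested in the inner class and 10 in the outer class. None was called without round by edgeR or DESeq2 (1 and 2 at an unadjusted p under 0.05). Xylt1, which starts the chains, had log2 changes of 0.07 ± 0.37 and 0.49 ± 0.42, and B4galt1, a galactosyltransferase, of 0.22 ± 0.49 and 1.35 ± 0.49, in the inner and outer class. With the block, Chst5, a keratan sulfate sulfotransferase, fell in the inner class, 1 of 12 against 5.3% of all genes. With the shared cells also left out it fell in both classes and B4galt1 rose in the outer class, 1 of 12 and 2 of 10 against 9.58% and 8.02% of all genes. Of 12 ligands and receptors, none of the 9 tested in the inner class and none of the 8 in the outer class was called without round by edgeR or DESeq2 (1 and 1 at an unadjusted p under 0.05). With the block, Tgfb2, a TGF-beta ligand, fell in the inner class (log2 change -1.12 ± 0.31, edgeR adjusted p = 0.0385), and Cd14 rose there when the shared cells were also left out, 1 and 2 of 9 against 5.3% and 9.58% of all genes. Tlr2, a receptor of Bgn, had log2 changes of 0.53 ± 0.42 and 1.25 ± 0.54 and Tgfb1 of 0.20 ± 0.37 and 0.45 ± 0.41. Of 10 proteases, none of 6 and none of 7 was called by edgeR without round in the inner and outer class (0 and 4 at an unadjusted p under 0.05, and 0 and 1 by DESeq2). Mmp3, which can cleave Dcn, had log2 changes of 0.50 ± 0.83 and 0.49 ± 0.82, and Htra1 of -0.34 ± 0.41 and -1.25 ± 0.36, called lower in the outer class only with the block. Mmp13 rose in the outer class without the shared cells, and with the block as well Mmp3, Mmp14 and Bmp1 also rose, 5 of 7 called against 8.02% of all genes.

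Within c1 none of these 3 lists had a gene called by edgeR without round (3 of 10 enzymes, 1 of 8 ligands and receptors and 2 of 6 proteases at an unadjusted p under 0.05) or by DESeq2. With the block, among 9.04% of all genes called, Tlr2 (log2 change 1.86 ± 0.45), B4galt1 (1.25 ± 0.32), Xylt1 (1.18 ± 0.30) and Mmp3 (1.16 ± 0.32) rose, and Mmp2 (-1.86 ± 0.44), a gelatinase, fell. With the shared cells also left out Mmp3 was not called (edgeR adjusted p = 0.149) and the other 4 were. The proteases had a median log2 change of -0.33 in c1, against 0.49 in the outer class.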

How the data were processed

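Single cell RNA was measured with 10x 3' chemistry in 2 control and 2 injured libraries. The authors deposited UMI counts per gene and barcode, made with Cell Ranger on mm10, per the labels' protocols; per the file headers, the version was 6.0.0 for control round 1 and 4 for the others. The counts are whole numbers and were not normalized. Control round 1 listed 444 barcodes with at least 502 UMIs each, while the others listed all barcodes, so only they gave free RNA levels (barcodes under 100 UMIs). How strand was used in counting is not given in the sources used here. Cells had at least 250 detected genes, genes were kept if seen in at least 5 cells, and no doublets were removed: Scrublet marked 10 of 3846 cells (0.260%), too few to count as working.

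Clusters were made with scanpy 1.11.5 (2000 variable genes, 30 components, 20 neighbours, Leiden resolution 1) without 18 family genes, so that these did not define the clusters. Clusters took the class with the most markers, at least 3, detected in 25% of cells at 1.2 times other cells. Those whose round 1 control cells were over 50% similar barcodes stayed unnamed.

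UMI counts were summed per library and cell group. They were tested with edgeR 4.0.16 in R 4.3.3 (filterByExpr, TMM, two-sided quasi-likelihood test, Benjamini-Hochberg over all genes tested), injury as the only term; the class comparison had library, class and class by injury terms. Calls were made at an adjusted p-value under 0.05, and errors of log2 changes are SE. An exact permutation test of 2 against 2 libraries cannot go below p = 0.33. Per round, ratios have exact 95% counting intervals; intervals and limits cover counting error only. The rounds pair the libraries, since control and injured discs came from the same animals per the labels' protocols; deviations of same-round libraries correlated at r = 0.57 in disc cells, 0.60 in the inner class, 0.41 in the outer class, 0.49 in c1 and 0.57 in c3. The block fit has 1 residual degree of freedom, so its spread rests on values shared across genes.

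All 10 SLRPs are named in every comparison. Of each of 5 other lists (60 genes), up to 4 with the highest disc cell level could be named; Col6a1 is one, and Col14a1, Chst5, Cd14, Mmp13, Mmp14 and Bmp1 were named after their values were seen. For likeness, the 3 genes with the highest r and at least 100 UMIs were named. The members and lists were chosen with earlier results of these data known. The comparisons within c1 and c3, and the combination of the block with leaving out the shared cells, were added after the data were seen. Alternatives were DESeq2 1.42.0, other size factors, no filter on low counts, other cell filters and class assignments, and each library left out. On simulated counts with 100 genes changed by a log2 of 1.5 and 100 by 3, the fit without round called 14% and 81% in the inner class (10330 genes) and 16% and 88% in the outer class (7100 genes).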

Additional observations from a re-analysis of the deposited data

Results flagged for a closer look

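The difference between injured and control Dcn levels was not the same in the 2 annulus classes. The outer minus inner difference in log2 change was -2.20, past the threshold of the class by injury test of edgeR (adjusted p = 0.0145). Dcn was at 4392 and 1777 CPM (UMIs of the gene per 1000000 UMIs) in control and 11629.7 and 8149.8 in injured inner cells of rounds 1 and 2. In outer cells it was at 14182 and 17012 in control and 12957 and 11985 in injured libraries. The clusters that make up the inner class differed between the groups.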

How the results depend on the processing

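Over the alternatives run, the log2 change of an SLRP changed sign in 4 of 144 values in disc cells, 17 of 140 in the inner class, 6 of 143 in the outer class, 22 of 143 in the class comparison, 3 of 117 in c1 and 7 of 90 in c3. None of these log2 changes passed the test, in the main setting or under the alternative; the cause was not tested. The number of SLRPs called was 0 in disc cells and became 2 with the replicate block, 2 with DESeq2, 3 with no filter on low counts and 1 with the block and without shared barcodes. In the inner class it was 0 and became 3, 1, 3 and 4 under the same alternatives, in that order. In the outer class it was 1 and became 3, 2, 2 and 4, and 0 with cells assigned by marker score. The count of 1 in the class comparison became 0 with no replicate block (no library term), at the UMI minimum of 502, by marker score and with clusters c1 and c3 in place of the classes. In c1 it was 1 and became 3 with the replicate block and 2 with the block and without shared barcodes; in c3 it was 0 and became 1 under both. Leaving out 1 library gave 0 to 2 in disc cells, 1 to 3 in the inner class, 0 to 2 in the outer class, 0 to 1 in the class comparison and 1 to 2 in c1. Lum and Omd were called in disc cells without control round 2, Aspn in the outer class without injured round 1, Ogn in the outer class without injured round 2, Omd in the inner class without injured round 1 or control round 2, Lum in the inner class without control round 1, Ogn there without control round 1 or injured round 2, and Aspn in c1, lower, without control round 2 (log2 change -2.19, edgeR adjusted p = 0.00814). With a library left out, the lone library of its group is assumed to vary like the other group. The share of all genes called is not given here for these fits, nor for no filter, marker score or the UMI minimum. The counts of SLRPs called under them thus have no background beside them. In disc cells, marker score turned Fmod to -0.026 and Prelp to -0.0086. In the inner class, Fmod turned to 0.044 with no filter, 0.061 under 10% mitochondrial UMIs and 0.18 by marker score, and Aspn to 0.036 with no filter. Prelp, at -0.0021, turned to 0.017 with the replicate block, 0.049 with DESeq2, 0.0046 with RLE size factors, 0.11 with no filter, 0.021 without shared barcodes, 0.0017 without Scrublet doublets and 0.035 without shared barcodes with the block. In the outer class, Fmod turned to 0.051 with no filter and Prelp to 0.11 by marker score. In the class comparison, marker score turned Bgn to -0.0061, Fmod to -0.62, Lum to 1.61, Prelp to 0.24 and Ogn to -0.71. Fmod turned there to -0.031 with no filter and -0.12 under 10% mitochondrial UMIs, and Ogn to -0.048 with DESeq2. Clusters c1 and c3 in place of the classes turned Ogn to -2.23, Omd to -1.62 and Aspn to -2.003. In c3, Ogn turned to -0.024 with the replicate block, with and without shared barcodes, and to -0.11 under 10% mitochondrial UMIs. With 1 library left out, the log2 changes that turned ranged, in disc cells, from -0.075 to 2.95 for Aspn and -0.022 to 0.36 for Prelp. In the inner class they ranged from -0.16 to 0.019 for Aspn, -1.22 to 0.22 for Chad, -0.30 to 0.17 for Fmod and -0.29 to 0.40 for Prelp. In the outer class they ranged from -0.33 to 0.28 for Fmod and -0.32 to 0.047 for Prelp. In c1 they ranged from -0.56 to 0.052 for Chad, -0.11 to 0.58 for Dcn and -0.064 to 0.46 for Prelp. In c3 the ranges were -0.92 to 0.23 for Fmod, -2.70 to 1.95 for Ogn and -0.053 to 0.98 for Prelp. In the class comparison they were -0.21 to 0.38 for Bgn, -1.18 to 0.69 for Chad, -0.021 to 0.11 for Fmod, -4.86 to 0.67 for Lum, -1.14 to 0.76 for Ogn, -0.42 to 1.13 for Omd and -0.40 to 0.11 for Prelp. Depth limits Lum in the inner class and Omd and Kera everywhere, which rest on few UMIs.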

Other observations

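Cluster c5, which took no name (267 of its 319 cells in control round 2, median 385 UMIs per cell), had Chad and Fmod at 6.91 CPM each, from 1 UMI, while Bgn was at 1687 and Aspn at 104. Because its cells are shallow and unnamed, c5 entered no comparison between groups. All 17 control round 1 cells of c5 had similar UMIs under the same barcode in injured round 1. This was also so for the unnamed clusters c9, c12 and c15, led by Krt18, Igkc and Ctrb1.

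The makeup of SLRP transcripts also differed between groups in the inner class. Dcn made up 48.5% (round 1) and 41.8% (round 2) of them in the controls, against 77.2% and 78.3% after injury. Chad made up 32.3% and 26.9% in the controls and 10.3% and 8.08% in the injured libraries. The clusters of the inner class differed between the groups. Within c3 the Chad share was 37.3% and 35.4% in the controls and 29.7% and 25.8% in the injured libraries. In the outer class Dcn stayed between 59.4% and 62.0% in all 4 libraries. These shares carry no test.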
